A study of Mus musculus with 8 samples.

Results

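The genes described here encode the proteasome, the particle that degrades proteins marked with ubiquitin. Members were all listed transcripts whose mouse symbol starts with Psm, then a letter from a to g, then a digit. The rule found 37 of 10987 listed transcripts. They comprised 12 genes of the core particle, 16 genes of the regulatory cap and 8 regulators, together with Psmc3ip, whose symbol matches but whose product is a partner in meiotic recombination and no proteasome subunit. Each gene was represented by 1 transcript.

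The proteasome is built from a barrel-shaped core and a cap at 1 or both of its ends. The core has outer rings of alpha subunits (Psma genes), which gate the entrance, and inner rings of beta subunits (Psmb genes), some of which cut the substrate. The cap holds a ring of ATPases (Psmc genes), which unfold the substrate and thread it into the core, and non-ATPase subunits (Psmd genes), which recognise ubiquitin and remove it. Alternative activators (Psme genes) can take the place of the cap, Psmf1 encodes an inhibitor and assembly regulator, and Psmg genes encode chaperones that assemble the core. Protein turnover by the proteasome operates in dividing progenitors and in oligodendrocytes, the myelin-forming cells of the central nervous system.

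RNA-seq and ribosome footprints, the stretches of mRNA that ribosomes shield from nuclease, were measured in 8 libraries. Oligodendrocyte progenitor cells (OPC) of the 129S/SvEv strain had been derived from epiblast stem cells and were grown with bFGF and PDGFA. Oligodendrocytes (OL) were differentiated from them over 3 days with 40 ng/mL thyroid hormone (T3) plus noggin, IGF-1, cyclic AMP and NT3. Each combination of cell and measurement had 2 replicate cultures. The study describes the OL cultures as differentiated from the OPC replicates, and cultures of the same number were assumed to be pairs. No genetic change was made in either group. All cultures descend from stem cells grown in vitro, and the study describes the differentiated cultures as a mixture that still holds progenitors.

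The labels were checked with marker genes. All 6 listed oligodendrocyte markers were higher in OL in both measurements, and Mag, Mog and Myrf were listed at 0 in both OPC RNA-seq libraries. Listed genes taken as OPC markers were Pdgfra, Sox10, Olig1, Gpr17 and Ptprz1. Of these 5, 3 (Pdgfra, Sox10, Gpr17) were higher in OL and 0 were lower, so this list did not mark the OPC libraries. Dividing-cell markers (Aurkb, Top2a, Ccnb1, Birc5) were lower in OL for 4 of 4, and their summed RNA-seq level was 255 and 294 FPKM in OPC against 69.2 and 58.7 FPKM in OL. Of 3 listed astrocyte markers, 2 were higher in OL RNA-seq, with Gfap at 14.2 FPKM in OL replicate 1 and 2.11 FPKM in OL replicate 2. Among 4 neuronal markers Tubb3 was higher in OL. Summed levels of the pluripotency markers stayed at or below 0.501 FPKM and the only listed microglial marker, Csf1r, at or below 0.0674 FPKM.

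Values are FPKM, read coverage scaled to the length of the transcript or coding sequence and to library size, so levels of different genes can be compared per length. Depth, estimated from the smallest steps between low values and uncertain by a factor of 2, ranged from 77.9 to 249 Mb aligned per library. The shallowest libraries were OL replicate 2 of each measurement. Over the 24 subunits of the particle that had values, the median subunit was covered by 38307 aligned bases in the deepest RNA-seq library and by 11722 in the shallowest. The 2 replicates of a group are few: an exact permutation test of 2 against 2 samples cannot give a two-sided p below 0.333. Differences were therefore tested with limma across all transcripts on log2(FPKM + 0.1), with Benjamini-Hochberg adjustment and a threshold of 0.05. In such bulk samples, fewer cells of a type and less RNA per cell cannot be told apart.

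The subunits of the particle were among the abundant mRNAs in both cell types. Averaged over the 4 RNA-seq libraries, the 24 subunits lay between the 86.3 percentile (Psmd11) and the 98.7 percentile (Psmb6) of listed transcripts. In footprints they lay between the 91.4 percentile (Psmd11) and the 98.1 percentile (Psmb2). Mean footprint levels ran from 158.0 to 702.0 FPKM. In RNA-seq the lowest mean was 38.5 FPKM, for Psmd11, and the highest was that of Psmb6, at 266 ± 15.7 FPKM in OPC and 335 ± 62.1 FPKM in OL (SD, n = 2). The assembly factors and activators among the members had lower mean footprint levels, with the exception of Psme3. Its mean of 173 FPKM was above those of Psmd11 and Psmd1 (158.0 and 167 FPKM). In RNA-seq the means of Psme3 (45.2 FPKM) and Psmg2 (42.7 FPKM) were above that of Psmd11. The cap chaperones Psmd5, Psmd9 and Psmd10, which guide assembly and leave the finished cap, had mean footprint levels of 63.8, 76.3 and 37.2 FPKM, below the lowest subunit. Psmb11, a catalytic subunit restricted to the thymus, had at most 0.206 FPKM in RNA-seq and at most 0.154 FPKM in footprints, and was too low to be tested.

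**Figure D1:**
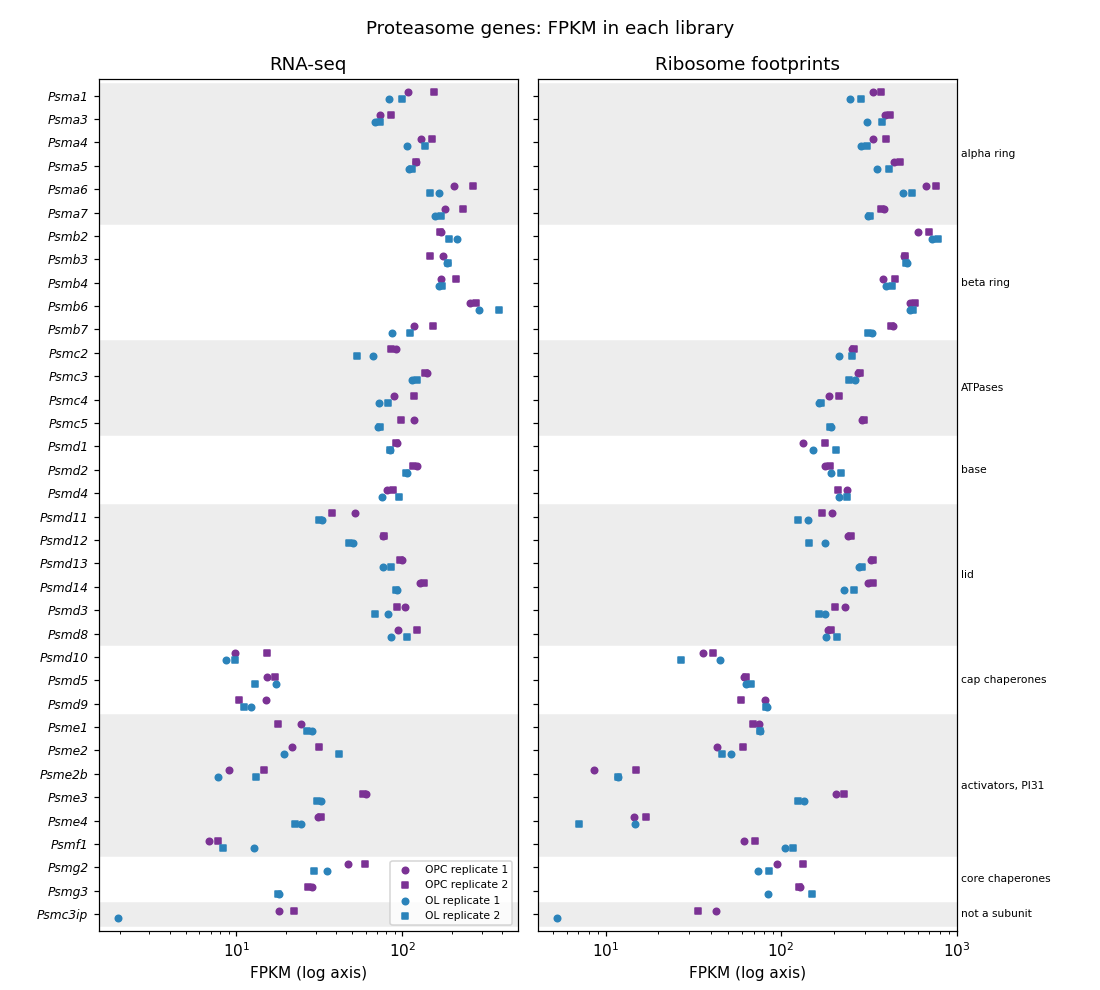
FPKM of each proteasome gene in every library on a log axis, RNA-seq on the left and ribosome footprints on the right, with OPC in purple, OL in blue, replicate 1 as circles and replicate 2 as squares. Psmb11 and values of 0 (Psmc3ip in OL replicate 2) are not drawn. Core and cap subunits form a narrow band between 158.0 and 702.0 FPKM in mean footprints, and OL points lie close to OPC points for most genes.

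Footprint FPKM were more even among subunits than RNA-seq FPKM, which are scaled to the whole transcript and not to the coding sequence. Psma3 and Psmd11, the lowest of core and cap subunits in RNA-seq, had transcripts of 3.72 and 2.25 times the coding length. The part of annotated length in this evenness was not tested. The SD of log2 FPKM among the 11 core subunits, without the thymus-restricted Psmb11, averaged 0.405 ± 0.0713 in footprints and 0.567 ± 0.0737 in RNA-seq (SD, n = 4 libraries). Among the 13 cap subunits, without the assembly chaperones, it averaged 0.338 ± 0.0374 in footprints and 0.464 ± 0.0694 in RNA-seq (SD, n = 4). With Psmb11 and the chaperones included, the spread was 3.41 in footprints and 2.94 in RNA-seq for the core, and 0.862 and 1.19 for the cap, so the order for the core turned with the inclusion of Psmb11. Per length of coding sequence and averaged over both cell types, all 11 core subunits had higher footprint levels than all 13 cap subunits. Psma1 was the lowest of the core (310.0 FPKM) and Psmd13 the highest of the cap (306.0 FPKM). Their means were 353 and 330 FPKM in OPC, while in OL the order turned, at 267 and 283 FPKM.

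Summed over the 11 core subunits, footprints were 5010 and 5458 FPKM in OPC and 4512 and 4862 FPKM in OL. Both OL libraries were below both OPC libraries. For the 13 cap subunits the sums were 3046 and 3118 FPKM in OPC and 2575 and 2706 FPKM in OL, again without overlap. As a share of the FPKM listed in a library, core footprints were 0.558% and 0.651% in OPC and 0.611% and 0.729% in OL, which overlapped, and cap footprints 0.339% and 0.372% in OPC and 0.348% and 0.406% in OL, which overlapped too. Within each pair of cultures these footprint shares were higher in OL, opposite in direction to the FPKM sums. In RNA-seq the cap share was 0.411% and 0.416% in OPC and 0.364% and 0.393% in OL, lower without overlap, while the core share of 0.545% and 0.631% in OPC and 0.588% and 0.669% in OL overlapped and was higher in OL within each pair. Sums and shares were not tested.

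**Figure D2:**
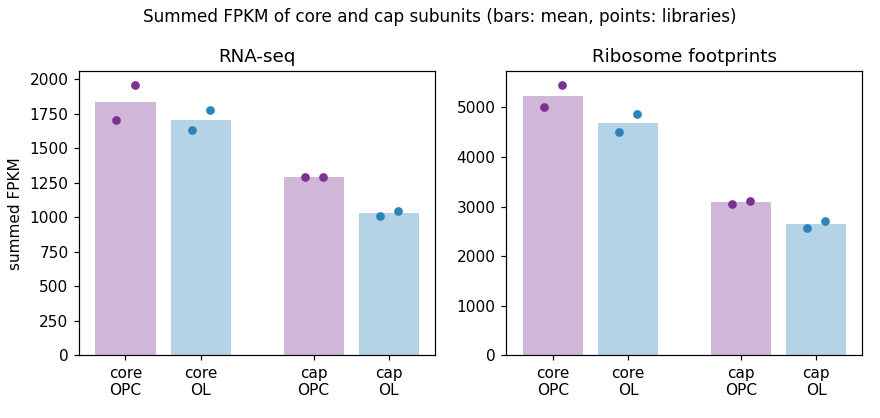
Summed FPKM of the 11 core and 13 cap subunits in OPC (purple) and OL (blue), RNA-seq on the left and footprints on the right, with bars at the mean and points for the 2 libraries. OL points lie below OPC points for the cap in both panels and for the core in footprints, while the core RNA-seq points (1709 and 1963 FPKM against 1632 and 1782 FPKM) overlap.

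Proteasome mRNAs changed little on differentiation. Of the 36 members tested in RNA-seq, 7 were lower in OL, 0 were higher and 29 did not pass. Over all 8346 transcripts tested, 20.2% were lower and 13.0% higher in OL, so the share of members that were lower, 19.4%, was near the background. The median log2 fold change (OL over OPC) of members was -0.26, beside -0.23 for all tested transcripts. Both OL libraries lay below both OPC libraries for 23 of the 36 members, compared with 44.2% of all tested transcripts. With the replicate block, which compares each OL culture with its own OPC culture, 11 members were lower and 0 higher, beside 24.8% lower over all transcripts, and these held all 7 of the first fit plus Psma1, Psma6, Psmb7 and Psmc2. Dividing the FPKM by median-ratio factors raised the median of all transcripts by 0.18 and left 2 members lower, with a member median of -0.08, while the share of all transcripts that were lower was then 15.2%. Without OPC replicate 1 or without OPC replicate 2, 0 members passed the limma threshold, although 10 and 6 had an unadjusted p under 0.05. Over all transcripts the calls in either direction then numbered 360 and 304, compared with 2772 in the full fit.

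In footprints, 3 members were lower in OL, 1 was higher and 32 did not pass. Over all 8342 transcripts tested, 10.8% were lower and 12.8% higher. The member median was -0.20, beside -0.16 for all tested transcripts, and both OL libraries lay below both OPC libraries for 18 of 36 members, compared with 37.9% of all. With the replicate block 5 were lower and 1 higher, beside 9.63% lower and 11.2% higher over all transcripts: Psma1, Psma6 and Psmb7 joined, while Psmd12 missed the threshold (adjusted p = 0.0520 in limma). With limma fitted without a trend 0 members passed, with 3 at an unadjusted p under 0.05, and without OPC replicate 1 or OPC replicate 2 the count was also 0, with 5 and 3. Over all transcripts 1036 were called without a trend and 0 without either OPC replicate, compared with 1969 in the full fit.

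The changes of proteasome genes were small. Without Psmc3ip, 35 of 35 tested members had a log2 fold change between -1 and 1 in RNA-seq and 35 of 35 in footprints. Of all tested transcripts, 65.6% stayed within these limits in RNA-seq and 56.5% in footprints. Among transcripts with mean levels in the range of the core and cap subunits, 73.5% of 1371 did so in RNA-seq and 66.4% of 737 in footprints. The SD of the log2 fold change was 0.33 over the 35 members in RNA-seq and 1.52 over all tested transcripts, and 0.31 and 2.04 in footprints. These shares are descriptions: genes are not replicates, and no test was made of the members as a set.

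**Figure D3:**
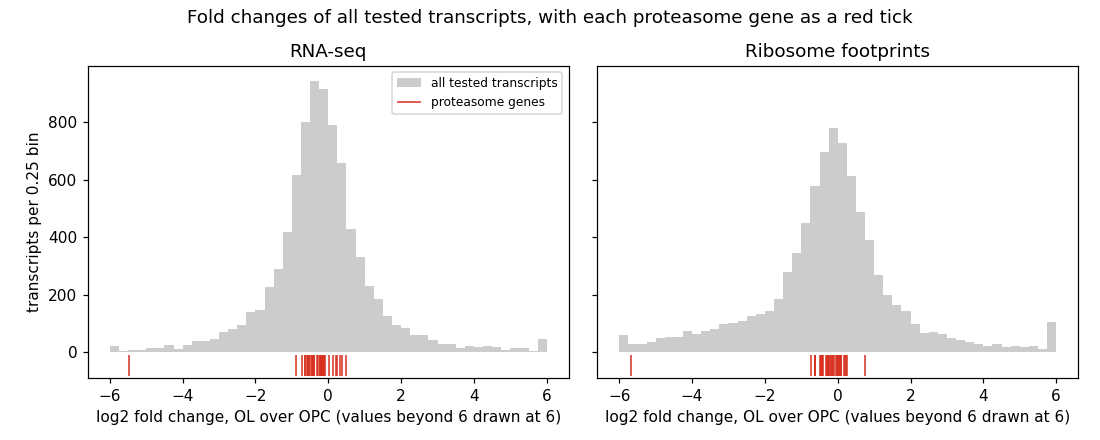
Distribution of the log2 fold change (OL over OPC) of all tested transcripts in grey, in transcripts per 0.25 bin, for RNA-seq on the left and footprints on the right, with each of the 36 tested members as a red tick. Psmc3ip is the lone tick near -5.5, and the other 35 ticks lie between -0.90 and 0.76.

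**Figure D4:**
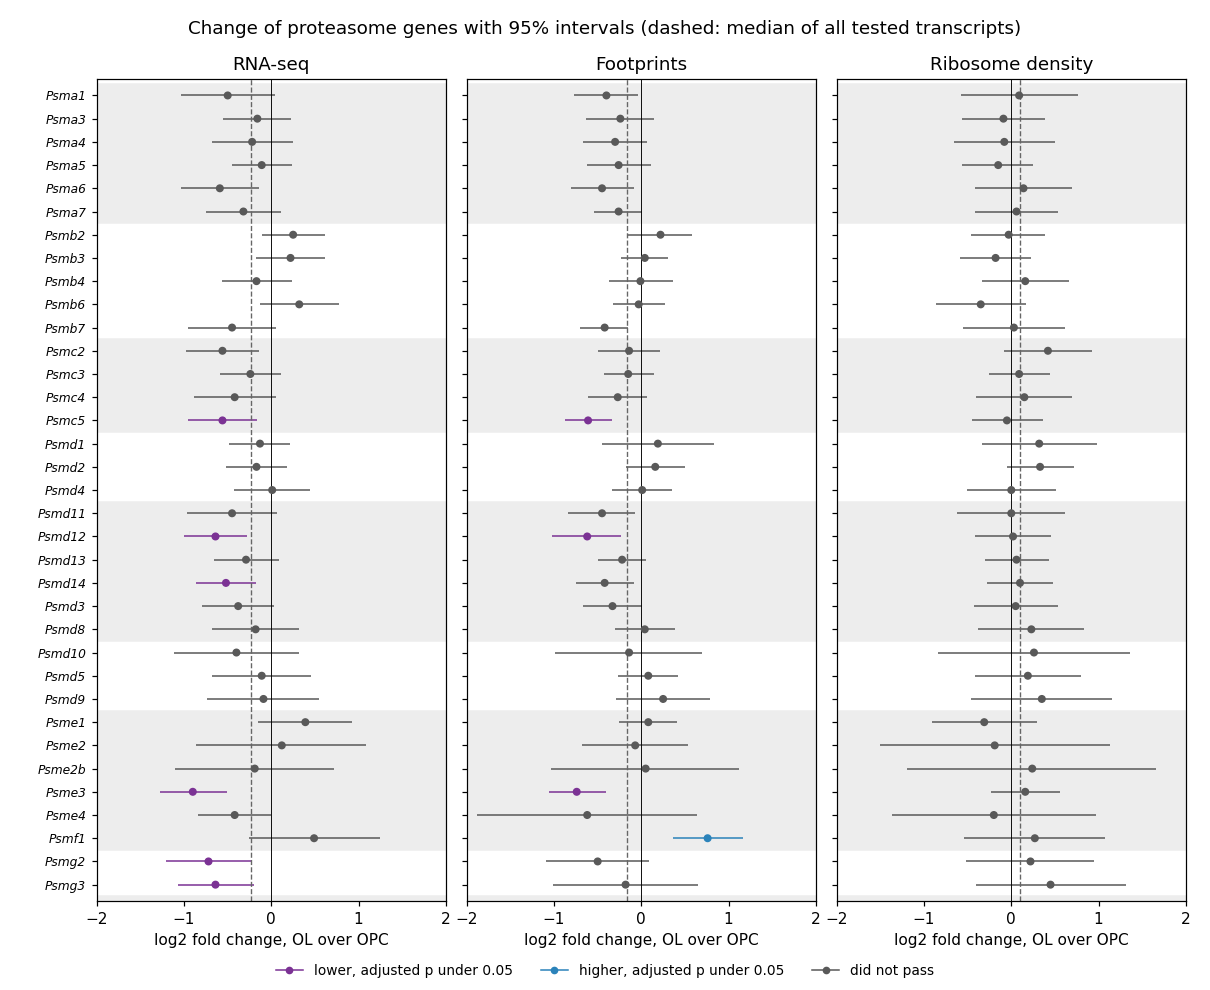
Log2 fold change (OL over OPC) of 35 proteasome genes with 95% limma intervals in RNA-seq, footprints and ribosome density, where purple points passed the adjusted threshold as lower, blue as higher and grey did not pass. The dashed line is the median of all tested transcripts, at -0.23, -0.16 and 0.10. Psme3, Psmc5 and Psmd12 are purple in both of the first panels, Psmf1 is the only blue point, and no point is coloured for ribosome density.

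Over all tested transcripts, 60.0% of changes were negative in RNA-seq and 55.5% in footprints. Alpha subunits, the gate of the core, had negative changes for 6 of 6 genes in RNA-seq and 6 of 6 in footprints. Of these alpha subunits, 0 passed the threshold in limma, with 1 and 2 at an unadjusted p under 0.05. Their median was -0.27 in RNA-seq and -0.28 in footprints. With median-ratio scaling 4 of 6 stayed negative in RNA-seq and 6 of 6 in footprints. All listed footprint FPKM summed to 898013 and 838625 in OPC and to 738843 and 666740 in OL. Signs as a share of these sums were not counted. Psma6 came closest to a call. Its RNA-seq levels were 205 and 267 FPKM in OPC and 165 and 147 FPKM in OL, a log2 fold change of -0.59 with an adjusted p of 0.0552 in limma, or 0.0279 with the replicate block. Its footprints were 668 and 763 FPKM in OPC and 494 and 554 FPKM in OL. The groups did not overlap in either measurement, and the footprint change of -0.45 had an adjusted p of 0.0860 in limma, or 0.0289 with the replicate block. For Psma7 the footprints of 387 and 371 FPKM in OPC and 311 and 321 FPKM in OL did not overlap either (adjusted p = 0.144 in limma).

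Beta subunits, which include the proteolytic sites, had negative changes for 2 of 5 genes in RNA-seq and 3 of 5 in footprints. Over all tested transcripts 60.0% and 55.5% were negative. The beta medians were 0.22 and -0.01, with 0 calls (0 and 1 at an unadjusted p under 0.05 in limma). Psmb6, the subunit with caspase-like activity, had RNA-seq levels of 255 and 277 FPKM in OPC and 291 and 379 FPKM in OL. OL was above OPC in RNA-seq, yet the footprints of 542 and 581 FPKM in OPC and 539 and 564 FPKM in OL overlapped, and neither difference passed (adjusted p = 0.223 and 0.871 in limma). Psmb7, the subunit with trypsin-like activity, went the other way. Its footprints were 433 and 423 FPKM in OPC and 328 and 311 FPKM in OL, without overlap, a log2 fold change of -0.42 with an SE of 0.10 and an adjusted p of 0.0532 in limma, or 0.0401 with the replicate block. The difference between these catalytic subunits was not tested. Psmb4, a beta subunit without a proteolytic site, had footprints of 380 and 448 FPKM in OPC and 397 and 426 FPKM in OL, which overlapped. Exons of Psmb7 overlap those of Nek6 on the opposite strand over 405 bases. Of the 30-base words of Psma5 and Psmb3, 64.5% and 67.3% also occur in other annotated genes or pseudogenes, so their reads may be shared. The third constitutive catalytic subunit, Psmb5, and the immunoproteasome subunits Psmb8, Psmb9 and Psmb10 were not analysed here.

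The ATPases and the lid of the cap held the 3 RNA-seq calls among subunits. All 4 ATPases and 6 of 6 lid subunits had negative changes in RNA-seq, beside 60.0% of all tested transcripts. The medians of ATPases and lid were -0.49 and -0.42. Of these 10 genes 3 passed, beside the 20.2% of all transcripts that were lower. With median-ratio scaling 4 and 5 stayed negative and none of the 3 (Psmc5, Psmd12, Psmd14) passed, with adjusted p of 0.147, 0.0643 and 0.146 in limma. Psmc5, an ATPase of the ring, had footprints of 289 and 295 FPKM in OPC and 193 and 189 FPKM in OL. The groups were well apart relative to the spread within each. Its log2 fold change was -0.61 ± 0.10 (SE, n = 2 per group; adjusted p = 0.0225 in limma) in footprints and -0.56 ± 0.16 (adjusted p = 0.0439 in limma) in RNA-seq, where levels were 118 and 97.9 FPKM in OPC and 71.5 and 73.8 FPKM in OL. With median-ratio scaling the footprint call was lost too (adjusted p = 0.0540 in limma), and the RNA-seq change was -0.38. The footprint call held under 5 of 7 alternative settings and the RNA-seq call under 4 of 7. With a library left out the changes stayed between -0.63 and -0.60 in footprints and between -0.69 and -0.43 in RNA-seq. Psmc4, another ATPase, had footprints of 187 and 215 FPKM in OPC and 164 and 168 FPKM in OL, lower without overlap but not past the threshold (adjusted p = 0.191 in limma).

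Psmd12, a lid subunit, had RNA-seq levels of 76.2 and 77.0 FPKM in OPC and 50.3 and 47.9 FPKM in OL. Its footprints were 242 and 249 FPKM in OPC and 177 and 144 FPKM in OL. In both measurements OL was below OPC. RNA-seq gave a log2 fold change of -0.64 ± 0.15 and footprints one of -0.62 ± 0.14 (SE, n = 2 per group), with adjusted p of 0.0227 and 0.0491 in limma. The RNA-seq call held under 5 of 7 alternative settings and the footprint call under 4 of 7. With a library left out the changes stayed between -0.68 and -0.61 in RNA-seq and between -0.77 and -0.47 in footprints. Psmd14, the lid enzyme that removes ubiquitin chains from substrates, had RNA-seq levels of 128 and 135 FPKM in OPC and 92.5 and 91.2 FPKM in OL. The fall of 0.52 on the log2 scale passed (adjusted p = 0.0385 in limma), and with median-ratio scaling the change was -0.33 and the call was lost. For Psmd14 this call held under 5 of 7 alternative settings, and the change stayed between -0.55 and -0.48 with a library left out. Its footprints of 314 and 336 FPKM in OPC and 228 and 260 FPKM in OL did not overlap but did not pass (adjusted p = 0.0818 in limma). The remaining lid subunits, Psmd3, Psmd8, Psmd11 and Psmd13, had footprint changes between -0.45 and 0.04 on the log2 scale, and 0 of these 4 passed in either measurement. Exons of Psmd13 overlap those of Sirt3 on the opposite strand over 342 bases.

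For the base scaffolds Psmd1 and Psmd2 and the ubiquitin receptor Psmd4, 0 of 3 footprint changes were negative (median 0.16). Over all tested transcripts 55.5% were negative. Of the 3 genes, 0 passed in limma, with 0 at an unadjusted p under 0.05. Psmd2 had footprints of 178 and 190 FPKM in OPC and 193 and 220 FPKM in OL, while its RNA-seq levels were 123 and 116 FPKM in OPC and 107 and 105 FPKM in OL. OL was above OPC in footprints and below in RNA-seq, and neither passed (adjusted p = 0.377 and 0.388 in limma). Of the transcript of Psmd2, 46.6% of all 30-base words also occur in other annotated genes or pseudogenes, so its reads may be shared.

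Among the activators, Psme3 changed most. Psme3 encodes the nuclear activator gamma, which opens the core without ATP or ubiquitin. Its RNA-seq levels were 60.0 and 57.7 FPKM in OPC and 32.5 and 30.5 FPKM in OL, and its footprints 205 and 227 FPKM in OPC and 135 and 124 FPKM in OL. The replicates of each group were close together and far from the other group. RNA-seq gave a log2 fold change of -0.90 ± 0.16 (SE, n = 2 per group; adjusted p = 0.00964 in limma) and footprints one of -0.74 ± 0.12 (adjusted p = 0.0229 in limma). In RNA-seq the call held under 7 of 7 alternative settings, and in footprints under 6 of 7. With a library left out it held in 1 of 4 cases for each. The dividing-cell markers listed above fell in the same libraries, and their part in this result was not tested.

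The other activators did not pass. Psme1, a subunit of the interferon-inducible activator, had RNA-seq levels of 24.6 and 17.9 FPKM in OPC and 28.5 and 26.6 FPKM in OL, with OL above OPC (adjusted p = 0.218 in limma). Its footprints were 74.4 and 69.6 FPKM in OPC and 75.9 and 76.1 FPKM in OL, with an interval of the log2 fold change from -0.25 to 0.41. Psme2, its partner, had footprints of 43.2 and 60.6 FPKM in OPC and 51.5 and 46.1 FPKM in OL, which overlapped. RNA-seq of Psme2 gave 21.5 and 31.6 FPKM in OPC and 19.3 and 41.3 FPKM in OL, so its 2 OL libraries were further apart than the groups.

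Psme2b, a single-exon copy of Psme2, had RNA-seq levels of 9.08 and 14.7 FPKM in OPC and 7.78 and 13.1 FPKM in OL. Its footprints were 8.61 and 14.9 FPKM in OPC and 11.7 FPKM in both OL libraries. The groups overlapped in both. Of its 30-base words 79.0% occur in other annotated genes, chiefly Psme2, and 66.6% of those of Psme2 occur in Psme2b, so the split of reads between the copies is uncertain.

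Psme4, the large single-chain activator, had footprints of 14.5 and 17.1 FPKM in OPC and 14.7 and 7.06 FPKM in OL. These overlapped, with an interval of the log2 fold change from -1.88 to 0.64. In RNA-seq its levels of 30.9 and 32.3 FPKM in OPC were above those of 24.5 and 22.7 FPKM in OL (adjusted p = 0.112 in limma).

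Psmf1 was the only member called higher in OL, and only in footprints. It encodes a protein that inhibits the core in vitro and also acts in assembly and transport of proteasomes. Its footprints were 61.1 and 71.0 FPKM in OPC and 105 and 117 FPKM in OL. The OL values were well above the OPC values, with a log2 fold change of 0.76 ± 0.15 (SE, n = 2 per group; adjusted p = 0.0338 in limma). In RNA-seq the levels were 6.81 and 7.81 FPKM in OPC and 12.7 and 8.31 FPKM in OL, higher without overlap but not past the threshold (adjusted p = 0.255 in limma). The footprint call held under 3 of 7 alternative settings and in 0 of 4 cases with a library left out (adjusted p up to 0.173), while the log2 fold change stayed between 0.65 and 0.86.

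The chaperones Psmg2 and Psmg3, which help to assemble the alpha ring, were both lower in OL in RNA-seq. Psmg2 had levels of 47.0 and 59.3 FPKM in OPC and 35.2 and 29.2 FPKM in OL (log2 fold change -0.72, adjusted p = 0.0399 in limma). Psmg3 had 28.6 and 27.2 FPKM in OPC and 18 and 17.7 FPKM in OL (-0.64, adjusted p = 0.0398 in limma). Neither passed in footprints. Footprints of Psmg2 were 94.6 and 133 FPKM in OPC and 74.0 and 85.1 FPKM in OL, without overlap. Those of Psmg3 were 128 and 127 FPKM in OPC and 84.7 and 149 FPKM in OL, so its OL libraries lay on both sides of OPC. The transcript of Psmg3 shares 237 bases of exon with Gm26938 on the same strand. With a library left out, neither RNA-seq call held in any of 4 cases, while the log2 fold change stayed between -0.88 and -0.55 for Psmg2 and between -0.67 and -0.60 for Psmg3. With median-ratio scaling both calls were lost (adjusted p = 0.0784 and 0.0964 in limma).

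Psmc3ip, the member that is no subunit, was the exception in size. RNA-seq gave 18.1 and 22.2 FPKM in OPC, 1.94 FPKM in OL replicate 1 and a listed value of 0 in OL replicate 2. Footprints were 42.8 and 33.4 FPKM in OPC, 5.32 FPKM in OL replicate 1 and a listed 0 in OL replicate 2. Both OL libraries were far below OPC. The RNA-seq log2 fold change was -5.48 with 0.1 FPKM added and -3.62 with 1 FPKM added, so its size depends on that constant (adjusted p = 0.0271 in limma), and footprints did not pass (adjusted p = 0.130 in limma). The RNA-seq value in OL replicate 1 rests on an estimated 302 aligned bases. Without OL replicate 2, the RNA-seq log2 fold change was -3.30. Exons of Psmc3ip overlap those of Mlx on the opposite strand over 385 bases. The summed level of the dividing-cell markers was lower in the same OL libraries, and their part in the result was not tested.

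Ribosome density, footprint FPKM divided by RNA-seq FPKM, measures how densely an mRNA is occupied relative to its amount. The change in density was not detectable for any member: 0 of 36 passed in limma and 0 had an unadjusted p under 0.05, while of all 8056 transcripts tested 0.0124% (1 transcript) passed. The median change of members was 0.08 on the log2 scale, beside 0.10 for all. Among the 24 subunits the changes ran from -0.35 for Psmb6 to 0.42 for Psmc2, whose 95% interval was -0.08 to 0.92. Changes were negative for 1 of 16 cap genes and 6 of 11 core genes, beside 42.3% of all tested transcripts. This sign depends on scaling: with median-ratio factors, which shifted the median of all transcripts by -0.16, 9 of the 16 cap genes were negative and the member median was -0.09.

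Levels of density varied more between genes than between cell types. The median over 35 members was 2.85 and 2.70 in OPC and 2.82 and 2.80 in OL, against 1.72, 1.77, 2.02 and 1.95 for all transcripts. Between 29 and 31 of the 35 members were above the median of all transcripts in each culture. Psmf1 had the highest density of the members, with 8.97 and 9.09 in OPC and 8.27 and 14.1 in OL, and Psme4 the lowest, with 0.468 and 0.53 in OPC and 0.60 and 0.311 in OL. Psma3 was highest among the 24 subunits in all 4 cultures, from 4.51 to 5.31. Footprints were scaled to coding length and RNA-seq to transcript length, and the ratio of these lengths moved with density. The ratio was 4.69 for Psmf1, 3.72 for Psma3 and 1.17 for Psme4, and across the 35 members its Spearman correlation with mean log2 density was 0.807, beside 0.384 across 6876 transcripts. Both measures contain these lengths and the points share the same libraries, so this is a description only. The part of the annotated length in these density levels was not tested.

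**Figure D5:**
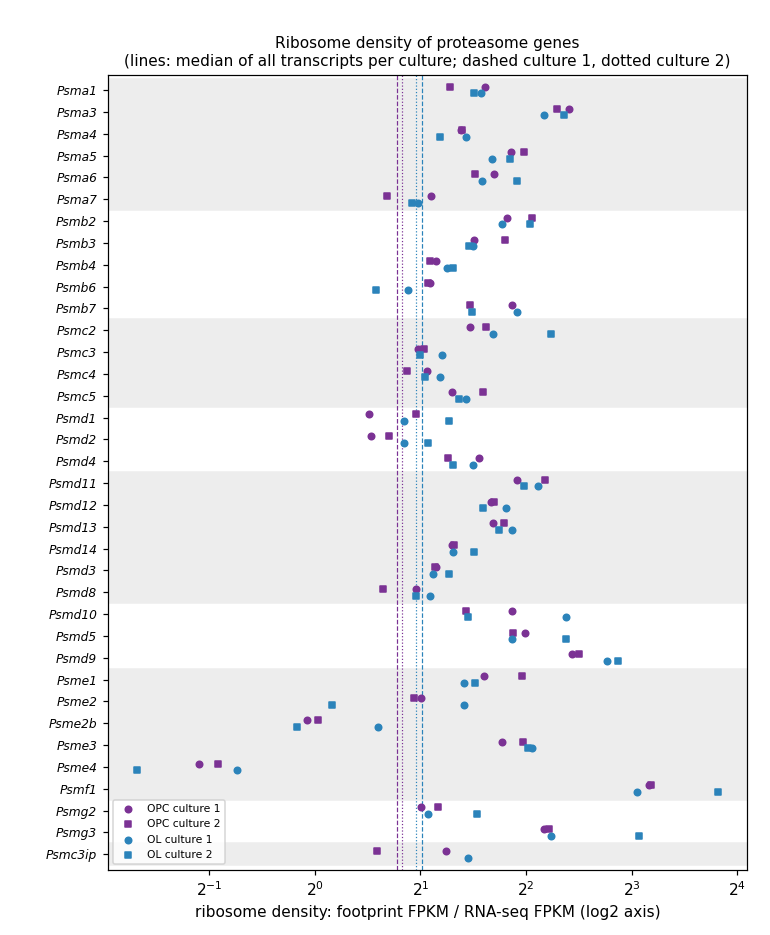
Ribosome density (footprint FPKM over RNA-seq FPKM, log2 axis) of each proteasome gene in OPC (purple) and OL (blue) cultures, circles for culture 1 and squares for culture 2, with vertical lines at the median of all transcripts in each culture. Most genes lie to the right of the lines, Psmf1 lies farthest right and Psme4 farthest left, and OPC and OL points of a gene lie close together.

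RNA-seq and footprint changes went together across the members. Over the 35 members without Psmc3ip the log2 fold changes had a Pearson correlation of 0.808 and a Spearman correlation of 0.811, and 27 had the same sign in both. The 2 measurements came from the same cultures, so shared differences between cultures enter both.

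Codon use was described because the study concerns tRNAs. The share of phenylalanine codons read as UUU had a median of 0.50 over 35 members and 0.429 over 10940 transcripts, and 25 members were above the latter. Psma4 had the highest share among members, 0.833, and Psme2b the lowest, 0.125. The share of lysine codons that are AAA had a median of 0.364 over members and 0.368 over all, with Psma1 highest at 0.667 and Psmb6 at 0. Across members, the AAA share had a Spearman correlation of -0.401 with the RNA-seq change and 0.182 with the density change, and the UUU share -0.249 and -0.191. Over all transcripts the corresponding values were -0.0597, 0.0178, -0.0832 and 0.0143. With the footprint change the correlation was -0.307 for AAA and -0.367 for UUU across members, and -0.0458 and -0.0563 over all transcripts. Genes are not independent points, and these correlations carry no test.

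Genes that work with the proteasome were taken from lists. Subunits and factors with other symbols, namely the assembly chaperone Pomp, the cap subunits Sem1 and Adrm1, the nuclear import adaptor Akirin2 and the cap-binding Ecpas, had 0 of 5 calls in RNA-seq and 0 of 5 in footprints. Pomp, which the core needs for beta ring assembly, came closest, with footprints of 894 and 792 FPKM in OPC and 603 and 461 FPKM in OL. Its groups did not overlap (log2 fold change -0.67, adjusted p = 0.0678 in limma).

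Deubiquitylases and shuttle receptors, which trim ubiquitin chains or carry substrates to the cap, were lower for 4 of 6 genes in RNA-seq and 3 of 6 in footprints, and 0 were higher. Over all transcripts 20.2% and 10.8% were lower. The medians of the list were -0.92 (RNA-seq) and -0.88 (footprints) on the log2 scale. Uchl5, a deubiquitylase bound to the cap, had footprints of 131 and 117 FPKM in OPC and 47.7 and 31.6 FPKM in OL, with OL far below OPC. Its log2 fold change was -1.67 in footprints (adjusted p = 0.0188 in limma) and -1.56 in RNA-seq (adjusted p = 0.0114 in limma). Ddi2, a ubiquitin-directed protease that activates the transcription factor Nfe2l1, fell by 2.63 on the log2 scale in RNA-seq. Its levels there were 10.5 and 10.0 FPKM in OPC and 1.46 and 1.69 FPKM in OL. Its footprints of 31.3 and 26.2 FPKM in OPC and 20.9 and 7.20 FPKM in OL did not pass (log2 fold change -1.21, adjusted p = 0.212 in limma). The shuttle receptor Ubqln4 fell by 1.28 in RNA-seq and by 2.06 in footprints. The shuttle receptor Rad23b fell in RNA-seq (log2 fold change -0.55), and Ubqln2 fell in footprints (-0.55). With median-ratio scaling Rad23b and Ubqln2 lost these calls (adjusted p = 0.144 and 0.0657 in limma). The dividing-cell markers fell in the same libraries, and their part in these changes was not tested.

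Ubb, a polyubiquitin gene, rose in RNA-seq from 330 and 368 FPKM in OPC to 534 and 490 FPKM in OL (log2 fold change 0.55, adjusted p = 0.0412 in limma). Rps27a, which encodes ubiquitin fused to a ribosomal protein, fell in footprints from 1479 and 1581 FPKM in OPC to 550 and 541 FPKM in OL (log2 fold change -1.49, adjusted p = 0.00644 in limma). Of the 7 listed genes for ubiquitin, its activating enzymes and the p97 segregase, the other 5 did not pass in either measurement. Ubiquitin units repeat within and between such genes, so their reads may be shared.

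Transcription factors that act on proteasome or immunoproteasome genes, or on such factors, included 2 that were lower and 1 higher of 6 tested in RNA-seq. Nfe2l1, which raises subunit transcription when proteasome activity is short, had 24.1 and 22.7 FPKM in OPC and 15.3 and 13.9 FPKM in OL (log2 fold change -0.68, adjusted p = 0.0415 in limma). Its footprints of 54.1 and 48.8 FPKM in OPC and 38.8 and 52.1 FPKM in OL overlapped. Nfe2l2, the oxidative stress factor, fell by 1.26 on the log2 scale in RNA-seq, and the repressor Bach1 rose by 0.99 there. Neither passed in footprints (adjusted p = 0.0526 and 0.0515 in limma). With median-ratio scaling Nfe2l1 lost its call (adjusted p = 0.0839 in limma). Of the 3 tested genes that present proteasome products on MHC class I, H2-D1 rose in RNA-seq (2.70) and footprints (2.92) from low levels of 1.49 and 4.06 FPKM to 24.4 and 15.4 FPKM in footprints. Its footprint call was lost with the replicate block (adjusted p = 0.0806 in limma).

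Promoter letters were examined for the members that passed in both measurements, Psme3, Psmd12 and Psmc5, and for Psmf1, the only one called higher. The sequences are the 250 bases before the annotated start, from RefSeq (GRCm38.p6), 5′ to 3′ on the strand of the gene, with matches to the searched motifs in capitals. The windows are chr11:101315963-101316212 (plus strand) for Psme3, chr11:107479278-107479527 (plus strand) for Psmd12, chr11:106255935-106256184 (plus strand) for Psmc5 and chr2:151741311-151741560 (minus strand) for Psmf1.
Psme3: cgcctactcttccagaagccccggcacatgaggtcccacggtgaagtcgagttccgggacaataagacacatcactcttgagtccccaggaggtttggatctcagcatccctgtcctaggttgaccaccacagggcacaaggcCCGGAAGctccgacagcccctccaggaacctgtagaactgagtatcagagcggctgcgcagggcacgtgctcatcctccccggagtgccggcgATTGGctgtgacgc
Psmd12: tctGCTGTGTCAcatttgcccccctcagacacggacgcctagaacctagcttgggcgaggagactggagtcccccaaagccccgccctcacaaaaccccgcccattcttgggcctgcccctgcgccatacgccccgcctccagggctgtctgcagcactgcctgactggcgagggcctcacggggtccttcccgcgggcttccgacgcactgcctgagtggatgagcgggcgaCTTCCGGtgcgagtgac
Psmc5: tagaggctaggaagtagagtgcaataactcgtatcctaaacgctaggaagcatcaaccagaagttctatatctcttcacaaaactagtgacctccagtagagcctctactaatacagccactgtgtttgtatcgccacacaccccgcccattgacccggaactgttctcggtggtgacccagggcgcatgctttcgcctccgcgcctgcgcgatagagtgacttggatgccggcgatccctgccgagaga
Psmf1: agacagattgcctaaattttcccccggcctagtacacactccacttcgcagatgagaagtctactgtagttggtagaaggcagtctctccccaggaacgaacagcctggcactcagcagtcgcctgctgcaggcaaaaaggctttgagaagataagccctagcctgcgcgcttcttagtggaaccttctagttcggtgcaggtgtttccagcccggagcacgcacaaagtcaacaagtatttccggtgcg

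The ETS core CCGGAAG occurs in Psme3 on the plus strand of the window and in Psmd12 on the other strand. Psme3 also holds CCAAT on the other strand, and Psmd12 a match to TGACNNNGC, the core of the antioxidant response element that Nfe2l1 and Nfe2l2 bind. No searched motif occurs in the windows of Psmc5 and Psmf1. Over both strands, the ETS core was found in 9 of 32 members with a RefSeq promoter (28.1%) and in 7.83% of 27025 genes. CCAAT was found in 12 of 32 members (37.5%) and in 37.5% of all genes, and TGACNNNGC in 3 of 32 (9.38%) and 11.5%. The E2F-like TTTNGCGC and the cAMP element TGACGTCA were in 0 of 32, against 1.31% and 1.77% of all genes, and the ATF4-like TGATGNAA in 1 (3.12%), against 3.91%. None of these motifs contains another of them. Besides Psme3 and Psmd12, the ETS core was present in Psma6, Psmc2, Psmd11, Psmd2, Psmd4 and Psme4, which did not pass in the first fits. It also occurred in Psmc3ip, which is no subunit, and was absent from these windows of Psmc5 and Psmf1. Such matches are letters in a window and not measured binding.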

How the data were processed

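RNA-seq and micrococcal nuclease footprint libraries from OPC and OL cultures (2 replicates each) were analysed from 1 table of 10987 canonical coding transcripts. The authors deposited FPKM values made from reads trimmed with fastx_clipper, mapped to GRCm38 (mm10) with HISAT2 2.1.0 and tabulated with StringTie 1.3.5 and ballgown on Gencode transcripts, with footprints assigned to the coding sequence and RNA-seq to the transcript. Replicates were not pooled, and whether counting used the strand is not given in the sources used here. FPKM hold no read counts, so a count model was not applied. Depth (77.9 to 249 Mb aligned, within a factor of 2) was estimated from steps between low values and limits low members such as Psmc3ip. The p-values rest on the spread between these 2 cultures per group, which limma moderates with a variance trend fitted over all tested transcripts.

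RNA-seq and footprints were each fitted over 4 libraries with limma 3.58.1 (R 4.3.3) on log2(FPKM + 0.1), with variance modelled along mean abundance, a minimum mean of 1 FPKM and Benjamini-Hochberg adjustment over all tested transcripts. Ribosome density was the interaction of cell and measurement over 8 libraries. All tests were two-sided with a threshold of 0.05. The scripts were tested on simulated data. Pairing of cultures comes from the shared replicate numbers and the study's methods, and the match of the numbers is an assumption. Deviations of same-numbered libraries had Pearson correlations of 0.108 (RNA-seq) and 0.086 (footprints). Alternatives were another pseudocount (1 FPKM), no minimum or a minimum of 5 FPKM, median-ratio scaling, no trend, the replicate block, 1 joint fit, each library left out, and other member lists.

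Every member was named, with values by library for those past a threshold, catalytic subunits, activators and Psmf1. Values by library were also given for Psma6, Psma7, Psmb4, Psmc4 and Psmd2, which meet none of these criteria. Partner genes were named where they passed in RNA-seq or footprints, at most 5 per list by size of change, or, as with Pomp, to describe a list with no call. Some genes of these lists are not reported here and were left out of the counts. The members, lists and motifs were chosen with earlier results of these data known. Annotated lengths, exon overlaps and shared 30-base words were taken from Gencode vM21, which held all 10987 transcript identifiers. Promoters of 32 members were matched in RefSeq. Psma2, Psma8, Psmb1, Psmb5, Psmb8, Psmb9, Psmb10, Psmc1, Psmc6, Psmd6, Psmd7, Psmg1 and Psmg4 were not analysed here.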

Additional observations from a re-analysis of the deposited data

How the results depend on the processing

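Counts of members past the threshold depended on the processing. In RNA-seq, where 7 members were lower, the count was 4 with no minimum mean, 2 with median-ratio scaling, 1 with limma without a trend and 11 with the replicate block, and between 0 and 2 with 1 library left out. Over all transcripts the RNA-seq calls numbered 2772, and 1715, 2608, 2075 and 3323 in these settings, and between 304 and 2227 with 1 library left out. In footprints, where 4 were called, it was 2 with no minimum mean, 2 with median-ratio scaling and 0 without a trend, and between 0 and 4 with 1 library left out. Over all transcripts the footprint calls numbered 1969, and 1163, 1885 and 1036 in these settings, and between 0 and 3010 with 1 library left out. The cause was not tested. In ribosome density 0 members passed under any setting run, with 2 at an unadjusted p under 0.05 without OL replicate 1 and 0 in the other settings.

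The median log2 fold change of members in RNA-seq was -0.08 with median-ratio scaling, and between -0.37 and -0.21 with 1 library left out. The median change in ribosome density turned from 0.08 to -0.09 with median-ratio scaling, whose factors shift every transcript of a library alike, and lay between 0.02 and 0.11 with a culture left out. The mean SD of log2 FPKM among core subunits, 3.41 in footprints and 2.94 in RNA-seq, was 2.54 and 2.13 with 1 FPKM added, and 0.405 and 0.567 without Psmb11. Among cap genes the SD of 0.862 in footprints and 1.19 in RNA-seq became 0.338 and 0.464 without the assembly chaperones, and 1.16 in RNA-seq with 1 FPKM added.

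Of 121 repeats of the calls of single members, 56 kept their call and 65 kept only their direction. The replicate block, which pairs cultures by number, changed no call of a member beyond those given. Depth limits Psmc3ip, Psmb11 and other members with few aligned bases. In OL replicate 2 the estimates were 781 for Psme2b footprints, 1095 for Psmd10 RNA-seq and 1221 for Psmg3 RNA-seq. The footprints of Psme4 rest on 3630 there. Reads shared with pseudogenes limit Psma5, Psmb3, Psmd2, Psme2 and Psme2b. With 2 cultures per group, the smallest change of a subunit that was called was the fall of Psmd14 by 0.52 on the log2 scale in RNA-seq.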

Other observations

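Relative levels of the core subunits were similar in both cell types, and those of the cap subunits less so in footprints. Ranked by mean footprint level, the 11 core subunits had a Spearman correlation of 0.927 between OPC and OL and the 13 cap subunits one of 0.643, given as descriptions over genes. In RNA-seq the values were 0.80 and 0.775. Psmb6 had the highest and Psma3 the lowest RNA-seq level of the core in both cell types, and Psmc3 and Psmd11 held these places in the cap. RNA-seq levels are scaled to transcript length, and the part of that length in these ranks was not tested. In footprints the highest core subunit was Psma6 in OPC and Psmb2 in OL, and the lowest cap subunit was Psmd1 in OPC and Psmd11 in OL.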
